A study of Mus musculus with 6 samples.

Results

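The genes described here encode neurogranin (Nrgn), GAP-43 (Gap43) and PCP4 (Pcp4), which bind calmodulin, calmodulin itself (Calm2 and Calm3), and the neuronal calcium sensors visinin-like 1 (Vsnl1), hippocalcin (Hpca), neurocalcin delta (Ncald) and neuronal calcium sensor 1 (Ncs1). Every probe set annotated to exactly 1 gene of these 9 was taken, which gave 13 probe sets of 7 genes. The arrays held 45037 probe sets without the manufacturer's controls, and 18193 genes in all were named by a probe set of their own. Calm2 and Calm3 were not analysed here. All 13 probe sets passed the filter on dim signals and belong to the 27022 tested.

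RNA was measured in whole brains of 6 male mice aged 2 months, on 1 Affymetrix array per brain. Of these, 3 mice carried 1 disrupted copy of the periphilin gene Pphln1 (heterozygous knockouts), and 3 were wild-type C57BL/6 littermates. No other allele and no treatment was given in the labels, and the position of the disruption in the gene is not stated in the sources used here. Periphilin is a subunit of the HUSH complex, a chromatin silencing complex. In whole-brain RNA, fewer cells of a type and less RNA per cell cannot be told apart.

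Calmodulin is a small protein that changes shape when calcium ions occupy its EF-hand loops and then switches on kinases, the phosphatase calcineurin, adenylyl cyclases and calcium pumps. Neurogranin in dendrites and spines and GAP-43 in growing and remodelling axons bind calmodulin preferentially when calcium is low and release it when calcium rises, and PCP4 speeds the exchange of calcium on calmodulin. Visinin-like 1, hippocalcin, neurocalcin delta and NCS-1 are EF-hand proteins of the neuronal calcium sensor family, which carry a fatty acid at their amino terminus and act at membranes. Neurogranin is known from neurons of the cortex, hippocampus and striatum, hippocalcin from hippocampal pyramidal cells above all, and PCP4 from Purkinje cells and several forebrain nuclei.

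Neurogranin was the member that stood lower in the heterozygous brains, at 0.774 of the wild-type signal, whereas GAP-43, PCP4 and the calcium sensors differed little. The members were grouped by the function of their proteins, and were selected with their genotype differences on these same arrays already seen, that of Nrgn foremost. Their differences are therefore a description and carry no test of their own. In the fit over all probe sets, none of the 13 member probe sets passed limma's adjusted threshold of 0.05, against 0.0148% of all tested probe sets. At an unadjusted p below 0.05 there was 1 of 13, the Nrgn probe set, where 4.83% of all tested probe sets lay. The median log2 difference of the 13 was 0.03, beside 0.01 over all tested probe sets, and 9 were higher and 4 lower in sign, where 52.3% of all tested probe sets were higher. The split was not stable to single arrays or to scaling. Without wild type 1 it was 5 higher and 8 lower, and without wild type 3 it was 10 higher and 3 lower. It was 7 higher and 6 lower with quantile normalization, and 6 higher and 7 lower with median centring, where 42.9% of all tested probe sets were higher.

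The signal of Pphln1 itself did not separate the genotypes at its brighter probe set, 1434822_at, which read 352.8, 269 and 338 in heterozygous brains 1 to 3 and 295, 290.2 and 314 in the wild types. At the dimmer 1435766_at it read 30.6, 44.4 and 36.6 against 63.2, 47.3 and 46.3, lower in each heterozygous brain. Neuronal markers were bright in all brains: Snap25, a synaptic membrane fusion protein gene, read 7406 to 8874. Array medians of the intensities ranged from 31.2 to 34.5.

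The promoter sequences of Nrgn and Pcp4 are printed because both genes encode small calmodulin-binding IQ-motif proteins. Whether the genotype difference of Nrgn differed from that of Pcp4 was not tested. Each runs from 250 bases before to 50 after a gene start in RefSeq, build GRCm38.p6, 5′ to 3′ on the strand of the gene. Nrgn lies at chr9:37552696-37552995 on the minus strand and Pcp4 at chr16:96467356-96467655 on the plus strand. Capitals mark matches, on either strand, to the promoter motifs that were searched, which are spelled out after the sequences.
Nrgn: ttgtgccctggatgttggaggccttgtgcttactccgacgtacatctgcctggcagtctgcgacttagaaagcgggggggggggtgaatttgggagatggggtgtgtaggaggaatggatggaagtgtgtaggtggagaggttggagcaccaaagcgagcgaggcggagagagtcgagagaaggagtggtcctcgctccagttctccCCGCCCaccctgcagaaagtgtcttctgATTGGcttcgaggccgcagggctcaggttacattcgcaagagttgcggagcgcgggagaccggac
Pcp4: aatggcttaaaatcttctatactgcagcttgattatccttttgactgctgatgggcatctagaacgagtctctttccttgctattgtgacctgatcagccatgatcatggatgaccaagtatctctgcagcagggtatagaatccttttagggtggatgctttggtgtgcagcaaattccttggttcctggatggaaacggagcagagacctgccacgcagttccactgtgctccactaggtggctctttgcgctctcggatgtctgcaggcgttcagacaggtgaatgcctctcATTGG

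The Nrgn window held 1 GC box (GGGCGG), and 35.7% of all 32851 promoter windows of that length held one on either strand. Both windows held 1 match to the CCAAT box, and 37.4% of all windows held one. In Pcp4 that match is the end of the window, after the gene start. Neither held a TATA box (TATAAA), found in 13.6% of all windows, or a cAMP response element (TGACGTCA), found in 1.79%. All matches in these windows were on the strand opposite to the gene, and no motif overlapped another. The Nrgn window had 59.3% G and C and 17 CpG pairs and the Pcp4 window 48.7% and 6, where the medians of all windows were 52.7% and 7. These matches describe the letters of the windows, and the arrays did not measure promoter activity. Of the 9 genes, 6 had an entry in the promoter table.

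Neurogranin is encoded by Nrgn on chromosome 9, from 37544493 to 37552745 (GRCm38.p6), and was measured by a single probe set, 1423231_at. Its intensity was 954, 932 and 995 in heterozygous brains 1, 2 and 3, and 1165, 1208 and 1368 in wild-type brains 1, 2 and 3. The genotypes did not overlap: each heterozygous brain lay below the lowest wild-type brain, and the heterozygous brains were closer to each other than the wild types were. A sign of RNA quality separated the genotypes too: the ratio of the 3′ to the 5′ control probe set of Gapdh was 0.747, 0.748 and 0.755 in the heterozygous and 0.713, 0.731 and 0.729 in the wild-type brains. The same ratio for beta-actin overlapped, at 1.60 to 1.72 and 1.64 to 1.70. The Gapdh ratio thus splits the brains in the same way as each probe set described here whose genotypes did not overlap. These include probe sets of Vsnl1, Slc17a7, Neurod6 and Camk2a below. Any measures that each separate the genotypes share this split, so it does not show that they vary together. The part of RNA quality in these values was not tested.

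The mean of Nrgn was 960.3 ± 31.9 (SD, n = 3) in heterozygous and 1247 ± 107 (SD, n = 3) in wild-type brains, a log2 difference of -0.37 (SE 0.09) on the log2(intensity + 16) scale. As a ratio this is 0.774, with a 95% interval of 0.678 to 0.884. The limma adjusted p over all 27022 probe sets was 0.956, and Nrgn ranked 31 by unadjusted p. A difference of that size or more, in either direction, was seen at 5.39% of all tested probe sets. With 1 array left out at a time the log2 difference of Nrgn ran from -0.42, without wild type 1, to -0.30, without wild type 3, the brain with its highest signal. No second probe set was available to set beside it.

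Gap43, whose protein marks growing axon terminals, lies on chromosome 16 from 42248552 to 42340651 and has 1 probe set, 1423537_at. It read 1727, 1599.8 and 1693 in heterozygous brains 1 to 3 and 1489, 1627 and 1671 in wild types 1 to 3, with overlapping genotypes and the lowest value in wild type 1. The means were 1673 ± 65.7 and 1596 ± 95.1 (SD, n = 3 each), a log2 difference of 0.07 (SE 0.08) and a ratio of 1.05 with a 95% interval of 0.926 to 1.19.

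Pcp4, also on chromosome 16, from 96467606 to 96525793, was measured by 1460214_at. It read 5847, 5977 and 5507 in the heterozygous and 5022, 5569 and 6041 in the wild-type brains. The lowest and the highest of the 6 values were both wild type, and the heterozygous values lay between them. The means were 5777 ± 242 and 5544 ± 509.8 (SD, n = 3 each), with a log2 difference of 0.06 (SE 0.09). Without wild type 1, and likewise with quantile normalization, the Pcp4 difference was -0.01. The Pcp4 ratio was 1.04 with a 95% interval of 0.910 to 1.20. Whether Nrgn differed from Gap43 and Pcp4 was not tested, and Nrgn was chosen with its difference already seen.

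**Figure D1:**
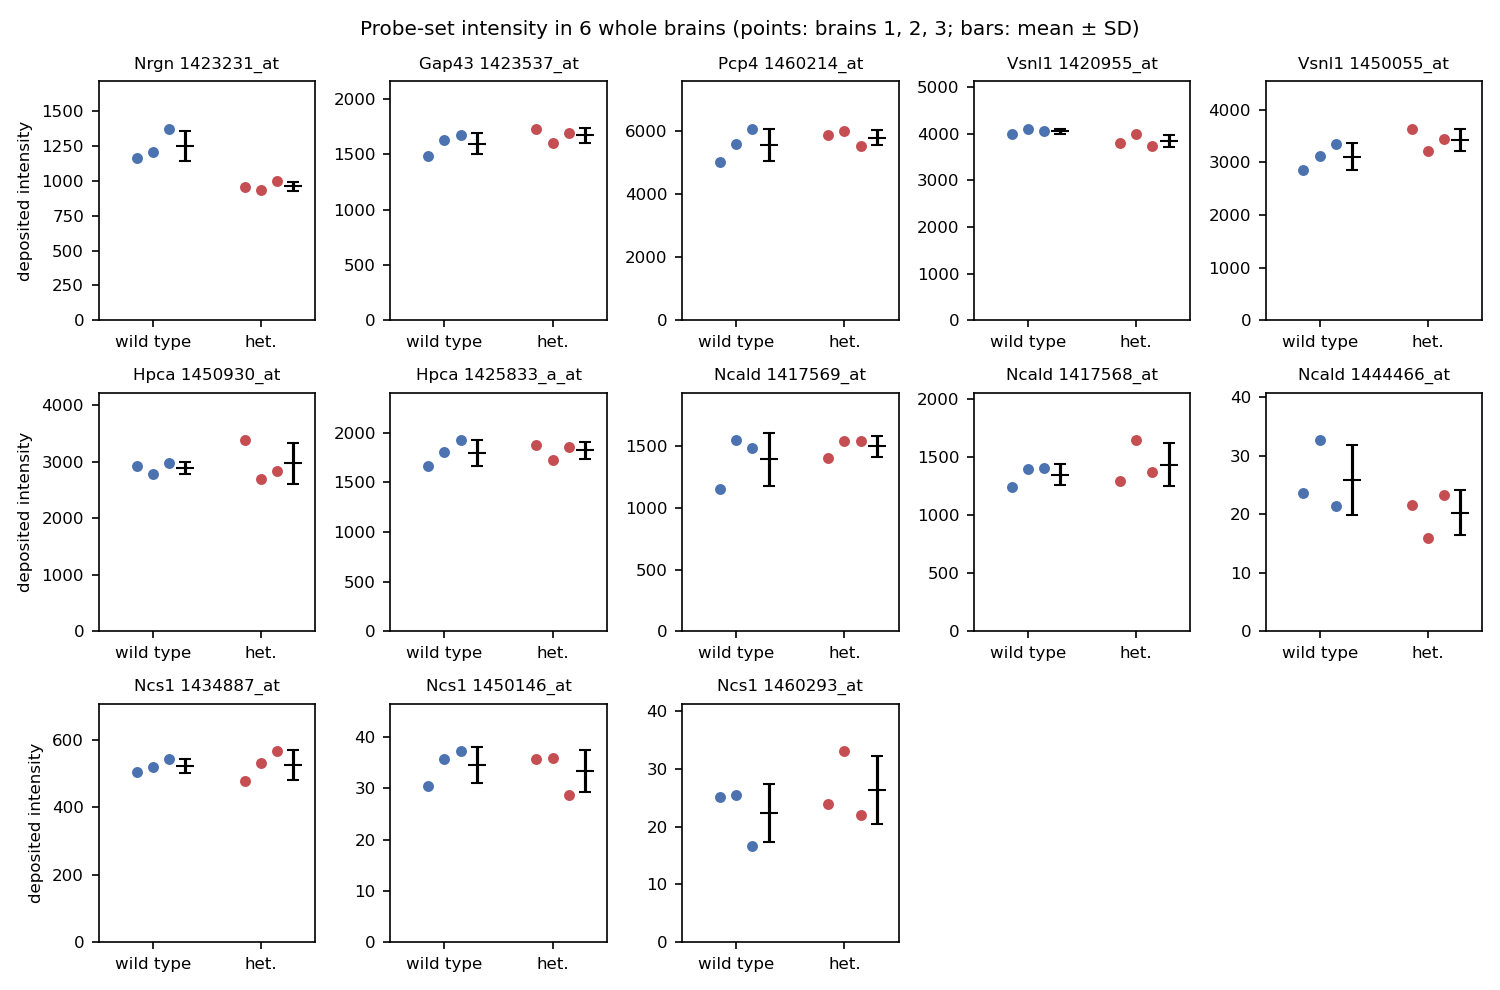
Deposited intensity (vertical axis, linear, from 0) of the 13 probe sets of the 7 measured genes in 3 wild-type (blue) and 3 heterozygous (red) whole brains; points are brains 1 to 3 from left to right, and the bars beside them are mean ± SD. At Nrgn the heterozygous brains (932 to 995) lie below the wild types (1165 to 1368), and at most other probe sets the genotypes overlap.

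Among the calcium sensors, Vsnl1 encodes visinin-like 1, a sensor found widely in brain neurons, on chromosome 12 from 11325257 to 11436578. Its brighter probe set, 1420955_at, read 3791, 3995 and 3737 in the heterozygous and 3996, 4093 and 4050.2 in the wild-type brains. The genotypes did not overlap there, but heterozygous brain 2 and wild type 1 were separated by little more than 1 intensity unit, and the log2 difference was -0.08 (SE 0.08). At 1450055_at the same gene read 3627, 3214 and 3435 in the heterozygous and 2850.15, 3116 and 3353 in the wild-type brains, with overlap and the opposite sign (log2 difference 0.14, SE 0.09). Both 95% intervals of Vsnl1 include 0. Within each brain, the signal of 1420955_at over that of 1450055_at was 1.05, 1.24 and 1.09 in the heterozygous and 1.40, 1.31 and 1.21 in the wild-type brains, with overlap between heterozygous brain 2 and wild type 3. The probe sets of Vsnl1 therefore gave no common direction. With Nrgn, 1420955_at made up the 2 of 13 member probe sets whose genotypes did not overlap, both lower in heterozygous brains, where 10.2% of all tested probe sets did not overlap and 4.81% did so with the heterozygous brains lower.

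Hpca, the gene of hippocalcin, lies on chromosome 4 from 129111570 to 129125919. At 1450930_at it read 3376, 2698 and 2837 in the heterozygous and 2914, 2775 and 2983 in the wild-type brains. Heterozygous brain 1 was the highest and heterozygous brain 2 the lowest of the 6, and the log2 difference was 0.03 (SE 0.10). At 1425833_a_at Hpca read 1879.8, 1729 and 1858 against 1665, 1805 and 1925, again overlapping, with a log2 difference of 0.02 (SE 0.08). The sign at 1450930_at rested on heterozygous brain 1: the difference was -0.06 without that brain, 0.10 without heterozygous brain 2, and -0.02 with quantile normalization. The ratios of the Hpca probe sets were 1.02 and 1.01, with 95% limits from 0.884 to 1.18 and from 0.892 to 1.15.

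Ncald, the gene of neurocalcin delta, is the 1 member on the chromosome of Pphln1, chromosome 15. It runs from 37366175 to 37792519, and its start lies 56.0 Mb from that of Pphln1. At 1417569_at Ncald read 1405, 1546 and 1547 in the heterozygous and 1151, 1549.7 and 1485 in the wild-type brains, so wild type 1 stood lower than the other 5. At 1417568_at it read 1293.5, 1647 and 1372 against 1245, 1403 and 1407, where heterozygous brain 2 was the highest. The log2 differences of these Ncald probe sets were 0.11 (SE 0.11) and 0.08 (SE 0.10). Without wild type 1 that of 1417569_at was -0.02. The third probe set of Ncald, 1444466_at, was dim, at 15.9 to 23.3 in the heterozygous and 21.4 to 32.6 in the wild-type brains, near the dim limit of 18.4, and its log2 difference of -0.20 (SE 0.19) is understated by the added 16.

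Ncs1, which encodes NCS-1, a sensor that acts on phosphoinositide metabolism and neurotransmitter release, lies on chromosome 2 from 31245708 to 31295989. Its bright probe set, 1434887_at, read 478, 531 and 566 in the heterozygous and 504, 519.6 and 544 in the wild-type brains. The wild-type values lay within the range of the heterozygous ones, and the log2 difference was 0.00 (SE 0.09), or -0.03 with median centring. The dim probe sets 1450146_at and 1460293_at ranged from 28.7 to 37.2 and from 16.6 to 33.0 over the 6 brains, with log2 differences of -0.03 (SE 0.17) and 0.14 (SE 0.20).

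Across the 9 probe sets of the members other than Nrgn with a mean intensity above 100, log2 differences ran from -0.08 to 0.14 with SEs of 0.08 to 0.11. The 95% limits of their ratios lay between 0.845 and 1.28. Each interval holds for its own probe set, and together they form no joint bound. The replicate spread of the 10 bright member probe sets, as SD over mean, was 3.33% to 12.9% in heterozygous and 1.20% to 15.3% in wild-type brains. The median SE of all 13 was 0.09, beside 0.15 over all tested probe sets.

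**Figure D2:**
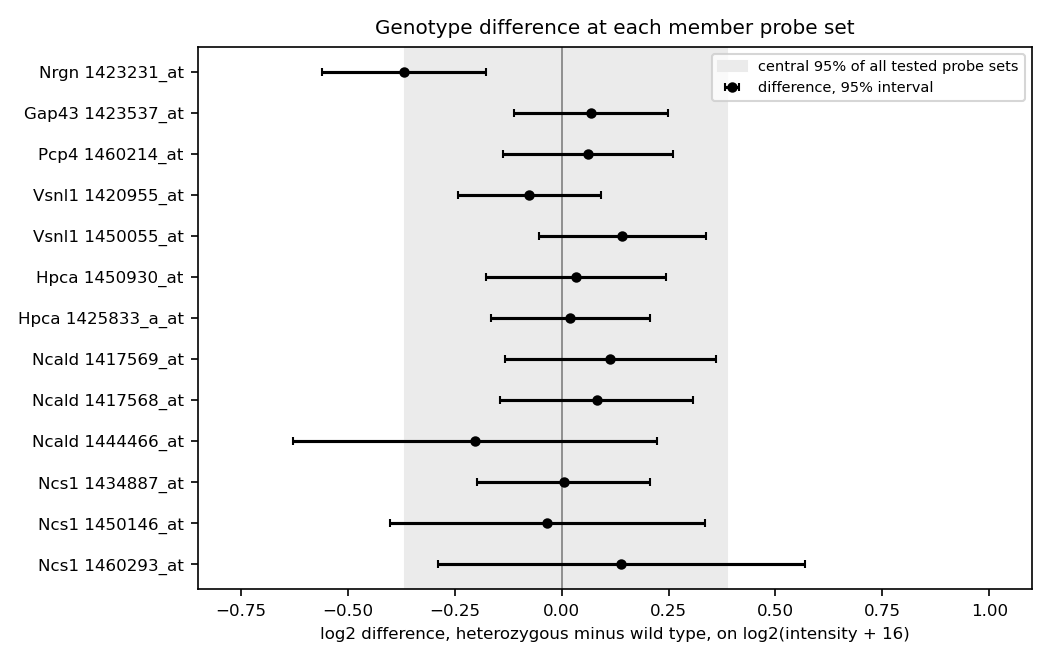
Log2 difference, heterozygous minus wild type, on the log2(intensity + 16) scale (horizontal axis) at each of the 13 member probe sets, with 95% intervals from limma; the grey band holds the central 95% of the differences of all 27022 tested probe sets. Nrgn lies at -0.37, at the edge of the band, and the other 12 lie between -0.20 and 0.14 with intervals that include 0.

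Several members were also low in 1 wild-type brain. Wild type 1 had the lowest of the 6 values at 6 of the 10 bright member probe sets (Gap43, Pcp4, Vsnl1 at 1450055_at, Hpca at 1425833_a_at and both bright Ncald probe sets), where 16.8% of the 14618 tested probe sets with a mean above 100 were lowest in that brain. By brightest probe set this holds for 3 of the 7 genes (Gap43, Pcp4 and Ncald), while Nrgn lay 0.09 and Vsnl1 at 1420955_at 0.02 above their log2 means in wild type 1. This count was made after the values had been seen and is a description. Markers of the pituitary were also highest in wild type 1: the summed intensity of 6 of 6 listed genes was 21234 there, 6709 in heterozygous brain 3 and 185 to 857 in the other brains, with no listed gene at 0. Their part in the low member values of wild type 1 was not tested. The difference of Nrgn was larger without wild type 1.

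For likeness, the log2 values of each probe set were centred on their mean, and the root mean square distance to Nrgn over the 6 brains was taken for 18506 probe sets of other genes. The nearest was Gm5481, a dim gene model at 1459419_at (distance 0.04). It read 15.6, 14.6 and 14.6 in the heterozygous and 20.6, 22.3 and 27.1 in the wild-type brains. Gm5481 was thus nearest on this scale, where the added 16 understates its difference (-0.34). It was followed by Cnot7, a deadenylase of the CCR4-NOT complex, at 1430519_a_at (0.05), Ccn2, a secreted matricellular protein, at 1416953_at (0.05), Kcnma1, the pore subunit of the calcium-activated BK potassium channel, at 1424848_at (0.05), and Dcc, a netrin receptor, at 1441572_at (0.05). Kcnma1 at 1424848_at read 175, 177 and 199.7 in the heterozygous and 239, 243 and 281 in the wild-type brains. The other tested probe sets of Kcnma1 lay at log2 differences of -0.05 (SE 0.10) and 0.03 (SE 0.15), against -0.44 (SE 0.11) at the one like Nrgn. The other Cnot7 probe sets lay at -0.05 and 0.01, against -0.29, and those of Dcc at -0.11 and 0.24, against -0.31. So for Kcnma1, Cnot7 and Dcc the likeness was that of 1 probe set, not of each probe set of the gene. These profiles were picked for being near Nrgn, so their lower heterozygous values follow from the choice.

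The nearest profiles of the other members were Washc2 for Gap43 (distance 0.015), Marf1 for Pcp4 (0.012), Pir for Vsnl1 (0.017), Slc23a2 for Hpca (0.023), Cert1 for Ncald (0.026) and Polr3k for Ncs1 (0.014). None of these is a calcium sensor or a calmodulin-binding member of the lists below.

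Markers of cortical and hippocampal neurons, where neurogranin is known to be abundant, did not follow 1 direction. Slc17a7, the vesicular glutamate transporter of cortical excitatory neurons, read 555, 544 and 501 in the heterozygous and 639.9, 620.3 and 674 in the wild-type brains, a log2 difference of -0.27 (SE 0.09). Neurod6, a transcription factor gene of cortical pyramidal neurons, read 284, 315 and 369 against 371, 414 and 384, a log2 difference of -0.27 (SE 0.11). Both were lower in every heterozygous brain, as Nrgn was. Camk2a, a kinase gene of the same neurons, was higher in every heterozygous brain at its brightest probe set, 1457311_at. Its other tested probe sets lay at log2 differences of 0.21, -0.07, 0.24 and -0.12, so this holds for that probe set. Of 12 listed cortical and hippocampal markers, 11 were tested, 7 higher and 4 lower in sign, with a median of 0.06. No gene of the list passed the adjusted threshold. At an unadjusted p below 0.05 there were 2 lower and 1 higher, where 4.38% of all genes lay. The genotypes did not overlap at Slc17a7, Neurod6 and Camk2a, nor did they at 10.2% of all tested probe sets.

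The summed intensity of the 11 markers was 7813 to 8889.5 in heterozygous and 7248 to 7433 in wild-type brains, and without Camk2a it was 5211 to 6079.8 against 5352 to 5746, which overlap. General neuron markers (10 of 10 tested) summed to 35221 to 40379 and 35404 to 35783, and 9 of them were higher in sign (6 with quantile normalization, 7 with median centring), with a median of 0.08. Of the 13 marker lists of cell types, brain regions and tissues, 12 overlapped between genotypes in summed level, and none was lower in every heterozygous brain. The striatal list, a further site of neurogranin, had 6 of 8 genes tested, 4 higher and 2 lower in sign. Astrocyte markers had 7 of 7 genes tested, 3 higher and 4 lower in sign (2 and 5 with median centring), with a median of -0.02, and their sums overlapped, at 16925 to 19409 and 17292 to 18261. Among them Gfap, the astrocyte filament gene, read 712, 441 and 449 in the heterozygous and 796, 522 and 802 in the wild-type brains, a log2 difference of -0.40 (SE 0.20), and -0.38 (SE 0.14) and -0.15 (SE 0.30) at its other probe sets. Slc1a3, a glutamate transporter gene of astrocytes, read 1013, 1159 and 907 against 1473, 1118 and 1144, a log2 difference of -0.27 (SE 0.12). Both overlapped between genotypes, with limma adjusted p of 0.956. Bright genes weigh most in such sums. In the cortical and hippocampal sum without Camk2a, Cck read 1556 to 2363 and Lamp5 1397 to 1651 over the 6 brains. Overlap of the sums therefore says little about dimmer markers such as Slc17a7 and Neurod6, and the sums are no test of composition. The part of cell or regional composition in the Nrgn values was not tested.

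**Figure D3:**
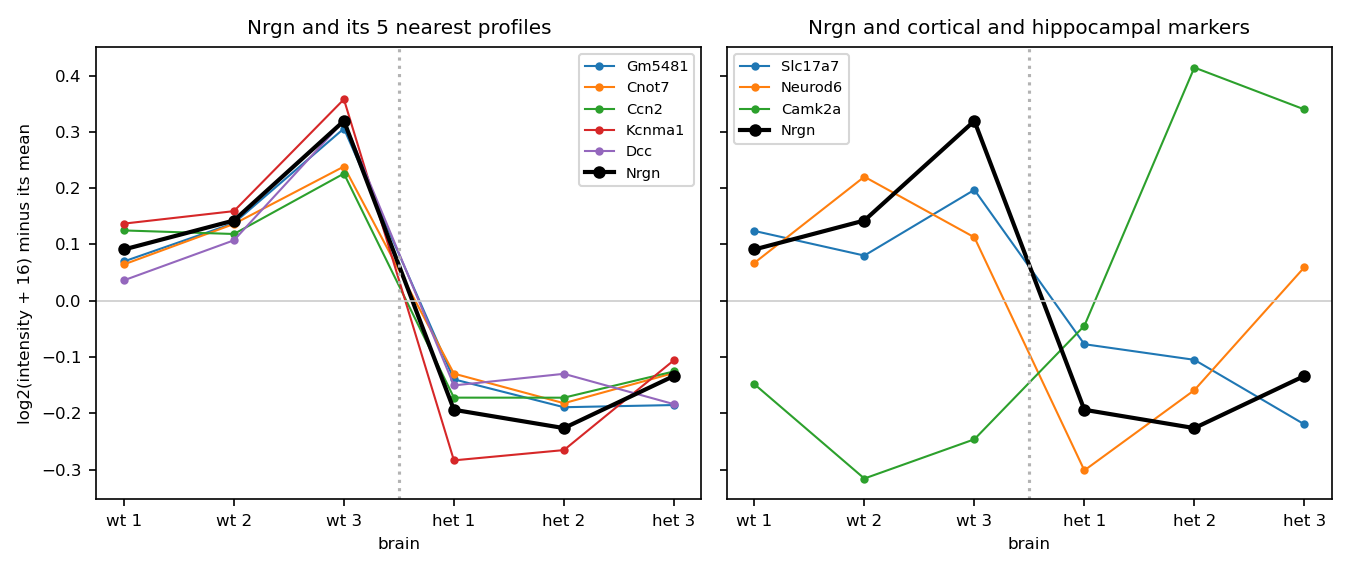
Log2(intensity + 16) of each gene minus its mean over the 6 brains (vertical axis) for wild types 1 to 3 and heterozygous brains 1 to 3 (horizontal axis), with Nrgn in black; left, the 5 nearest profiles, right, 3 cortical and hippocampal markers. Lines join the values of 1 gene and imply no order among brains. Slc17a7 and Neurod6 lie lower in heterozygous brains (-0.27 each), as Nrgn does (-0.37). Camk2a, drawn at its brightest probe set, lies higher (0.47), which its other probe sets did not all share.

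The rest of the calmodulin and calcium-sensor machinery was described from lists of 78 genes, of which 77 had a probe set and 73 were tested, each by its brightest probe set. None of the 73 passed the adjusted threshold, where 0.00768% of all 13024 genes did. At an unadjusted p below 0.05 there was 1, Camk2a, beside 4.38% of all genes. In sign 48 were higher and 25 lower, with a median log2 difference of 0.03 against 0.01 over all genes, of which 52.0% were higher. The median was 0.01 without heterozygous brain 1 (40 higher, 33 lower) and 0.01 without wild type 2 (41 higher, 32 lower). With median centring the split was 36 higher and 37 lower, beside 41.9% higher over all genes.

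Calmodulin-dependent kinases, their inhibitors and calcineurin had 21 of 22 genes tested, 17 higher and 4 lower in sign (14 and 7 with median centring), with a median of 0.05. Camk2a, the alpha subunit of CaM kinase II, which competes with neurogranin for calmodulin in spines, read 2040.35, 2809.7 and 2668 in the heterozygous and 1898, 1688 and 1772 in the wild-type brains at 1457311_at. Each heterozygous brain was above every wild type, with heterozygous brain 1 nearest to them. The log2 difference was 0.47 (SE 0.12), and the limma adjusted p over all probe sets was 0.956. The other 4 tested Camk2a probe sets lay at 0.21 (SE 0.10), -0.07 (SE 0.13), 0.24 (SE 0.19) and -0.12 (SE 0.25), so they did not share its size or, in part, its sign.

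Ppp3r1, the regulatory subunit of calcineurin, was next at 0.17 (SE 0.08), from 3047 to 3428, with a second probe set at 0.20 (SE 0.14). Lowest were Camk2d, the delta subunit of CaM kinase II, at -0.19 (SE 0.10), whose other 4 probe sets lay between 0.07 and 0.21, and Camk1, CaM kinase I, at -0.10 (SE 0.11), whose second probe set lay at 0.26 (SE 0.13).

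Other calmodulin targets had 22 of 23 genes tested, 13 higher and 9 lower in sign (8 and 14 with median centring), with a median of 0.01. Adcy1, a calmodulin-stimulated adenylyl cyclase gene, was at 0.15 (SE 0.10), with a second probe set at 0.11 (SE 0.14). The plasma membrane calcium pump gene Atp2b3 was at 0.18 (SE 0.13), with a second probe set at -0.09 (SE 0.14). Strn3, a striatin, was at -0.11 (SE 0.08) and the pump gene Atp2b1 at -0.15 (SE 0.09), with its other probe sets at 0.20 and -0.11.

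The genes listed beside neurogranin, GAP-43 and PCP4 encode a relative of PCP4 and proteins of growing axons or the membrane. All were tested (8 of 8), 6 higher and 2 lower in sign (4 and 4 with quantile normalization, 5 and 3 with median centring), with a median of 0.05. Pcp4l1, a relative of PCP4, was at 0.12 (SE 0.11). The highest by test statistic were the stathmin genes Stmn4 and Stmn2, at 0.12 each (SE 0.08 and 0.09), which regulate microtubules in growing axons. The lowest were Basp1 at -0.04 (SE 0.08) and Marcks at -0.01 (SE 0.09), membrane proteins that share with GAP-43 a role at the actin cortex. Of the 6 other Marcks probe sets each was lower in sign, from -0.60 (SE 0.22) to -0.07 (SE 0.08).

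Other neuronal calcium sensors and calcium-binding proteins had 12 of 15 genes tested, 5 higher and 7 lower in sign (3 and 9 with median centring), with a median of -0.03. Cabp1, a calmodulin-like regulator of calcium channels, was at 0.26 (SE 0.13). Necab3 was at 0.16 (SE 0.10), with a second probe set at -0.06 (SE 0.15). The potassium channel partners Kcnip3 and Kcnip4 were lowest, at -0.19 (SE 0.12) and -0.17 (SE 0.10), with other probe sets at 0.03 for Kcnip3 and at 0.09 and 0.14 for Kcnip4. The photoreceptor sensor genes Rcvrn, Guca1a and Guca1b were below the dim limit.

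Further EF-hand proteins, calcium buffers and others, were all tested (10 of 10), 7 higher and 3 lower in sign, with a median of 0.05. Calretinin (Calb2) and parvalbumin (Pvalb), buffers of interneurons, were both at 0.09 (SE 0.09 and 0.10). S100b, a glial calcium-binding protein, was at -0.11 (SE 0.09), with its second probe set at 0.03, and S100a10 was at -0.26 (SE 0.19), with its others at -0.01 and -0.04.

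**Figure D4:**
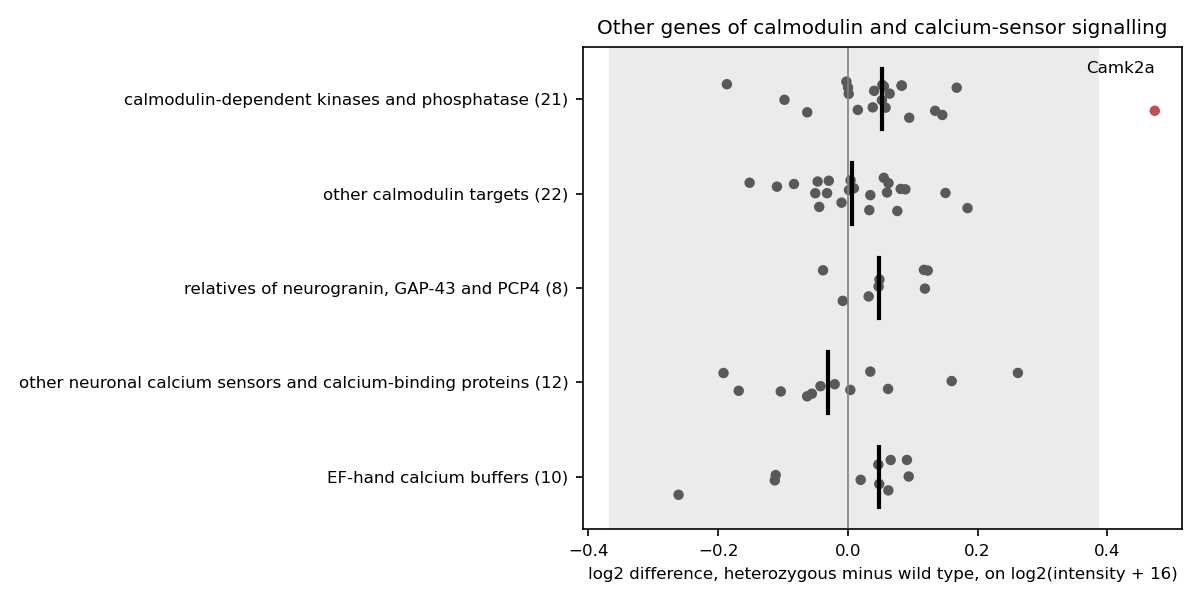
Log2 difference, heterozygous minus wild type, on the log2(intensity + 16) scale (horizontal axis) of the 73 tested genes in 5 lists of calmodulin and calcium-sensor signalling, with the number tested in brackets; each point is 1 gene by its brightest probe set, thick bars are list medians (-0.03 to 0.05), and the grey band holds the central 95% of all tested probe sets. Camk2a (red, 0.47) is the 1 gene at an unadjusted p below 0.05 and the 1 point outside the band.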

How the data were processed

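The deposited values are linear probe-set intensities, 1 per probe set and array. The mean of the central 96% of values was 150.0 on each array, so the authors had scaled them. The sources used here name no summarising software, and cRNA was made from an oligo(dT) primer, per the labels' protocols. Intensities were analysed as log2(value + 16), which understates dim changes, without further normalization. Probe sets whose mean log2 value lay at or below the 40th percentile (signal 18.4) were removed. Symbols came from the platform annotation, updated to GRCm38.p6 gene names. Genotypes were compared with limma 3.58.1 in R 4.3.3 (lmFit, eBayes with trend, two-sided, Benjamini-Hochberg over 27022 probe sets, threshold 0.05), a procedure tested on simulated data. With 3 arrays per genotype, their number limits the precision.

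The members and lists were chosen with earlier results of these data known. Genes named are all members, the 2 highest and 2 lowest of each pathway list by moderated t, Camk2a, and the probe sets nearest in profile (5 for Nrgn, 1 for each other member); Pcp4l1, the untested sensors and the marker genes were picked for naming after their values were seen. A further gene of the lists is not reported here. Alternatives changed normalization, pseudocount, dim filter, variance model, replicate block, arrays and, for lists, the probe set per gene. Same-numbered brains deviated from their group means with correlations of 0.08, 0.20 and -0.02 across probe sets. These values do not settle whether the numbers are pairs, and they were not taken as pairs.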

Additional observations from a re-analysis of the deposited data

How the results depend on the processing

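No member probe set passed the adjusted threshold under any of the 15 alternatives, and under each of them Nrgn was the 1 member at an unadjusted p below 0.05. None of the pathway genes passed the adjusted threshold under any of their 16 alternatives. At their brightest probe sets, the log2 differences of Nrgn, Gap43 and Vsnl1 kept their sign throughout. For Nrgn and for Vsnl1 at 1420955_at, whose genotypes did not overlap, leaving out a single array could not change the sign. The dim filter, variance model and replicate block do not alter the difference itself, so the kept sign is no measure of robustness. The differences of Pcp4, Hpca, Ncald and Ncs1 changed sign in 2, 3, 1 and 4 of the 15. The causes of these changes were not tested. The members' median lay between -0.02 and 0.06 with single arrays left out. Calls over all probe sets numbered 4, and 1 without the dim filter or without the variance trend; with single arrays left out they ran from 1 (without heterozygous 2) to 14 (without heterozygous 1), with 2 without heterozygous 3 and 2 without wild type 3. Pathway genes at an unadjusted p below 0.05 numbered 1, but 3 with the replicate block, 2 with the mean of a gene's probe sets, and 1 to 4 with single arrays left out (4 without wild type 1, 3 without heterozygous 3, 2 without heterozygous 2 or wild type 3). Calls over all probe sets were 5 with the replicate block, and the limma adjusted p of Nrgn was then 0.303, its lowest over the alternatives, which reached 0.999. Whether the numbers of the brains pair them was not settled. Heterozygous brain 1 correlated as well with wild type 3 (0.09) as with wild type 1 (0.08). The brains numbered 2 correlated at 0.20, the highest value of any heterozygous and wild-type brain. With the replicate block, 7.01% of all tested probe sets had a limma unadjusted p below 0.05, beside 4.83% without it. Signals near the dim limit of 18.4 bound what the dim probe sets of Ncald and Ncs1 can show.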
